A study of Mus musculus with 13 samples.

Results

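Brain cells sorted with magnetic beads against Pdgfra were compared between postnatal day 12 (P12) and embryonic day 16 (E16). The comparison rests on the 3 libraries titled P12 and the 3 titled E16, 6 of the 13 libraries sequenced, chosen by the age in their titles. Pdgfra, a receptor of platelet-derived growth factor, is the surface protein by which oligodendrocyte progenitor cells (OPCs) are commonly isolated, and the beads were used to enrich these cells. All mice were wild-type C57BL/6 and untreated as far as the labels say, and each library holds total RNA of brain cells in bulk. The labels name no reporter or Cre line, so the beads alone define the cells. The labels give the same sorting and library protocol for both ages and do not say how many mice went into a library. The question was what separates the sorted fractions of these 2 ages, described here over all genes and not only over the largest folds.

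OPCs arise late in brain development from progenitors that earlier make neurons, and they divide, spread and in part mature into the oligodendrocytes that wrap axons in myelin. Late gestation is a time of cortical neuron production and migration in the mouse, while in the first postnatal weeks gliogenesis, vessel growth and early myelination go on side by side. A sorted fraction of such tissue can hold neurons, vessel cells, microglia and astrocytes beside OPCs, so a bulk value is an average over whatever cells were captured. In bulk samples fewer cells of a type and less RNA of a gene per cell cannot be told apart, and this holds for every value below.

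The 3 P12 libraries did not give 3 independent samples. P12 libraries 2 and 3 were nearly as alike as repeated draws from 1 library, since their chi-square divided by its degrees of freedom was 2.34 (16120 genes), against 16.6 to 179 for the 14 other pairs of libraries of 1 age. Their counts were therefore summed into 1 sample, P12 replicate 2-3, which leaves n = 3 at E16 and n = 2 at P12. Nothing in the labels says that libraries of 1 age came from different mice, so p-values measure spread between samples. This spread was estimated over the 12 samples of all 4 ages in the series, not over E16 and P12 alone. The 6 libraries held 12581355 to 25810455 gene counts, so that 3 counts, the most that a count of 0 allows, equal 0.116 to 0.238 CPM (gene counts scaled by library size). The share of mitochondrial transcripts was 1.52% to 3.54% at E16, and at P12 it was 4.44% in library 1 but 10.8% and 10.1% in libraries 2 and 3. Xist, made from the inactive X chromosome of females, stood at 151, 290.2 and 141 CPM at E16 and at 294 and 1.21 CPM in the P12 samples, so that the P12 samples also differ in this transcript. Values below are TMM-scaled CPM unless another unit is named, and P12 samples are given in the order replicate 1, replicate 2-3.

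Checked against their markers, the sorted cells carried OPC transcripts at both ages beside high levels of genes of other cell types. Pdgfra itself (ENSMUSG00000029231) stood at 38.4, 35.5 and 25.1 CPM at E16 and 46.7 and 93.6 CPM at P12. Both P12 samples lay above the E16 samples, and the log2 change of 1.09 did not pass the test (adjusted p = 0.242, and a change of 0.50 without P12 replicate 2-3). Olig2 and Sox10, transcription factors of the whole oligodendrocyte lineage, had log2 changes of 1.27 and 3.16. Neither passed the test (adjusted p = 0.456 and 0.113), whose spread is shared over all 4 ages. Both P12 samples again lay above the E16 samples. Olig2 stood at 4.32, 7.48 and 5.78 CPM at E16 and 12.6 and 15.8 CPM at P12. Sox10 stood at 1.58, 4.16 and 4.54 CPM at E16 and 45.7 and 16.3 CPM at P12. Cspg4, the proteoglycan NG2 of OPCs and pericytes, stood at 9.57, 20.3 and 10.8 CPM at E16 and 54.2 and 64.9 CPM at P12, a rise of 2.13 ± 0.34 (log2, SE). Summed over 12 OPC markers, the 3 E16 samples held 684, 639 and 562 CPM and the P12 samples 543 and 627 CPM, with Neu4 at 0 counts at E16. Of these markers 3 were called higher and 1, Vcan, lower, and their median log2 change was 1.45, although the summed level was about equal at both ages. Vcan alone held 278, 236 and 214 CPM of these sums at E16 and 23.7 and 44.8 CPM at P12, so the equal sums do not show that the other markers were steady. Over all genes tested 16.7% were called higher and 10.5% lower, the background for all marker counts in this paragraph. The 14 immature neuron markers, by contrast, summed to 8019, 6865 and 6785 CPM at E16 and to 314 and 349.8 CPM at P12. The sum of 12 endothelial markers was 66.1, 74.3 and 47.5 CPM at E16 and 5779 and 4538 CPM at P12. Neuronal signal was thus high at E16 and vessel signal at P12. Astrocyte markers, of which 10 of 12 were called higher and Agt was at 0 counts at E16, summed to 357, 315 and 291 CPM at E16 and to 2643 and 3298 CPM at P12. The 12 oligodendrocyte markers summed to 70.5, 87.7 and 67.7 CPM at E16 but to 8374 and 484 CPM in the P12 samples, which lie far apart, with Enpp6 at 0 counts at E16. Of these 12, 7 were called higher, but 2, 3 and 2 without E16 replicates 1, 2 and 3 and 2 without P12 replicate 1. Such sums do not measure shares of cells. Of 12 radial glia and progenitor markers 4 were lower and 2 higher, with sums of 1701, 1728 and 1632 CPM at E16 and 2054 and 1881 CPM at P12. Of 12 markers of border macrophages and leukocytes 4 were higher, or 2 without E16 replicate 1, E16 replicate 3 or P12 replicate 2-3, with Cd3e and S100a8 at 0 counts at E16 and sums of 99.97, 104 and 90.7 CPM at E16 and 132 and 106 CPM at P12. Further marker lists are given beside the gene groups below.

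Differences between the ages ran through the whole range of expression. Of 21170 genes tested, 3543 were called higher at P12 (16.7%) and 2222 lower (10.5%), 27.2% in all, by edgeR's quasi-likelihood test at an adjusted p of 0.05. Over all genes tested the log2 change had a median of 0.09 with quartiles of -0.77 and 1.39. Both P12 samples lay above every E16 sample for 6548 genes (30.9%) and below every E16 sample for 6543 genes (30.9%), so separation of the samples was as frequent in 1 direction as in the other. The 2222 lower calls and 3491 of the 3543 higher calls were among these separated genes. At an unadjusted p of 0.05, 8062 genes would have passed. The balance of directions depended on the tool, since limma-voom called 3805 genes higher and 3969 lower, so that 48.9% of its calls were higher, against 61.5% in edgeR. With P12 replicate 1 left out 2923 genes were called higher and 1214 lower, and with P12 replicate 2-3 left out 2652 and 1096. Leaving out E16 replicate 1 gave 2831 and 1586, E16 replicate 2 gave 3037 and 1728, and E16 replicate 3 gave 2844 and 1534.

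The calls in the 2 directions had different shapes. Higher calls were large and often of weakly expressed genes, with a median log2 change of 2.74, while lower calls were smaller and of abundant genes, with a median of -1.55. Of the higher calls, 329 exceeded a log2 size of 6 and 150 were under 1, while of the lower calls 29 exceeded 6 and 375 were under 1. Among the 1581 genes with a mean over 100 CPM, 579 (36.6%) were called lower and 325 (20.6%) higher. Among the 7016 genes of 1 to 10 CPM, 101 (1.44%) were called lower and 1290 (18.4%) higher. The median standard error of the log2 change was 0.27 over 100 CPM and 0.81 at 1 to 10 CPM, so the size that could pass the test was smaller for abundant genes. Tested against a 2-fold change, 2218 genes were called higher and 710 lower, 13.8% of those tested. There were 139 higher calls with no count in any E16 library and 5 lower calls with no count at P12, whose fitted size is no measure of the change.

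**Figure D1:**
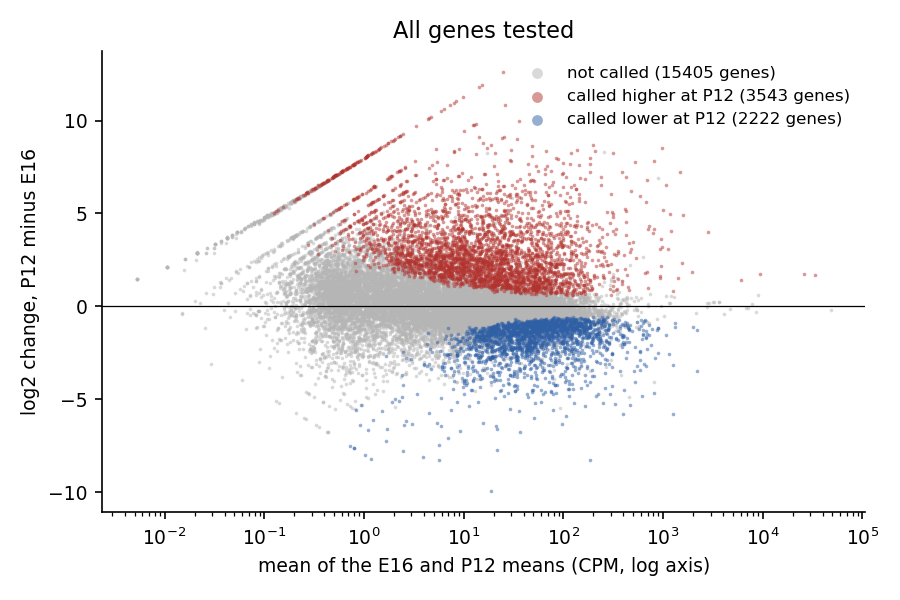
Log2 change from E16 to P12 (vertical axis) against the mean level of both ages (horizontal log axis, CPM) for the 21170 genes tested, with calls in colour. Lower calls (2222) crowd at high levels and small sizes, higher calls (3543) spread over all levels and up to large sizes, and the straight diagonals of points at the upper left are genes with 0 or few counts at E16.

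**Figure D2:**
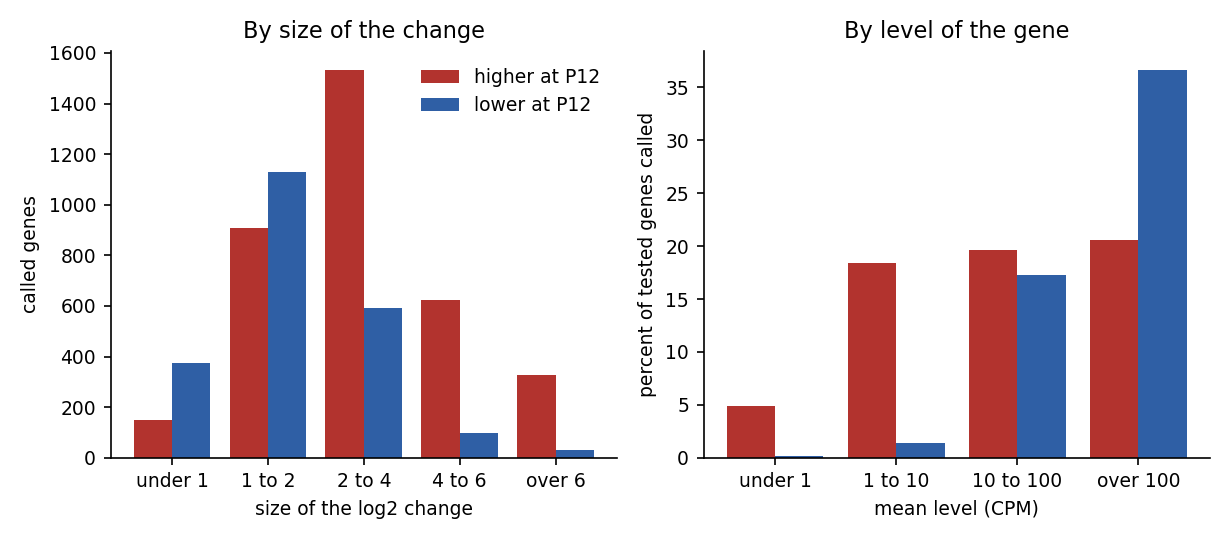
Left, number of genes called higher (red) and lower (blue) at P12 by size of the log2 change. Right, percent of the tested genes called in each direction by mean level. Lower calls peak at a log2 size of 1 to 2 (1130 genes) and higher calls at 2 to 4 (1532 genes), and above 100 CPM lower calls outnumber higher calls.

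In terms of RNA, genes that were called took up a large part of the libraries. The genes called lower held 35.3%, 32.0% and 36.8% of counts in the 3 E16 samples and 11.7% and 10.4% in the P12 samples. The genes called higher held 9.60%, 10.8% and 8.13% of counts at E16 and 36.2% and 45.8% at P12. Gm26917, a gene annotated as noncoding (GRCm38 chromosome 17, 39843013 to 39846341) and chosen after its values were seen, made up part of the last value. It took 1.21% to 2.54% of counts in the E16 samples and 1.99% and 9.27% in the P12 samples. The origin of its reads was not tested. Among nuclear coding genes alone, the genes called higher took 38.4% and 36.6% of counts in the P12 samples, and those called lower took 15.3% and 15.2%. Scaled by gene length, the most abundant nuclear coding genes at E16 were the adult globins Hba-a1 and Hba-a2, the tubulin Tuba1a, the translation factor Eef1a1, the chromatin-associated Ptma and the chaperone Hsp90ab1. At P12 they were the thyroid hormone carrier Ttr, the same globins, the membrane glycoprotein Bsg, the iron store Fth1 and the lipid carrier Apoe. As counts per length, scaled to the same total over the nuclear coding genes of each sample (TPM over these genes), Tuba1a stood at 6399, 6608 and 8325 at E16 and 1215 and 669 at P12, and Bsg at 421, 396 and 484 and 10354 and 6308. Ttr, made in the choroid plexus, stood on this scale at 398, 424 and 603 at E16 and at 26848 and 5069 in the P12 samples, of which replicate 1 is far the higher. The 12 markers of ependyma and choroid plexus summed to 118, 126 and 198 CPM at E16 and 5639 and 902 CPM at P12, with Tmem212 at 0 counts at E16, and 10 of them were called higher, or 3 without P12 replicate 1. Their part in the level of Ttr was not tested. The globins varied widely within E16, with Hba-a1 at 302, 1530.3 and 1497 CPM at E16 and 1406 and 1095 CPM at P12.

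The 10 coding genes with the smallest p that were higher at P12 were in the main genes of vessel cells. They were Ptprb, Flt1, Tek, Cd93, Adgrf5, Mmrn2 and Pecam1, all genes of endothelial surfaces, the smooth muscle myosin Myh11, the GTPase regulator Arhgap27 and the interferon-inducible GTPase Gbp3. Ptprb (ENSMUSG00000020154, GRCm38 chromosome 10, 116275523 to 116389535), a receptor phosphatase that acts on endothelial junctions, had 5.61, 5.07 and 5.60 CPM in the E16 samples and 1959 and 1979 CPM in the P12 samples. Its 2 P12 values were nearly equal and its E16 values lay close together, for a log2 change of 8.50 ± 0.34 (SE, adjusted p = 4.48e-09). The other 9 changed by 6.28 (Gbp3) to 7.78 (Flt1). Arhgap27 went from 0.576, 0.603 and 0.708 CPM to 77.9 and 67.6 CPM, a change of 6.83 ± 0.30. The endothelial marker sum given above rose with these genes, and its part in them was not tested.

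The 10 coding genes with the smallest p that were lower at P12 were in the main genes of young neurons and their progenitors. They were the tubulin Tubb2b, the axonal membrane protein Islr2, the microtubule binder Dcx, the transcription factors Sox4, Sox11, Neurog2, Zbtb18 and Nfib, the splicing repressor Hnrnpa1 and the centrosomal Cep170. Tubb2b (ENSMUSG00000045136, GRCm38 chromosome 13, 34126748 to 34130466) stood at 1439, 1414 and 1885 CPM at E16 and at 61.8 and 63.7 CPM at P12. No P12 value came near an E16 value, and the change was -4.65 ± 0.37 (log2, SE, adjusted p = 3.05e-07). Nfib, a factor of glial and late cortical differentiation that is not restricted to neurons, had 1811, 1455 and 1305 CPM at E16 and 271 and 254 CPM at P12. Its P12 samples were close together, and it fell by 2.54 ± 0.24 (log2, SE). Neurog2, a proneural factor of cortical progenitors, had the largest change of the 10, -6.77 ± 0.59. Hnrnpa1 and Cep170 are expressed in most cell types and fell by 2.81 ± 0.24 and by 2.53 ± 0.23.

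Below these extremes lay a large body of moderate changes among well expressed genes, more of them downward. A log2 size of 1 to 2 with at least 100 CPM in the higher age was found for 400 genes called lower and 140 called higher. The 4 with the smallest p that were higher were Tpm1, a tropomyosin of contractile and other actin filaments, the ubiquitin-binding Ankrd13a, the lipid scramblase Ano6 and Ppp1r13b, a binding partner of p53. Ano6 stood at 34.7, 39.6 and 34.9 CPM at E16 and 130.4 and 126 CPM at P12. Its samples hardly varied within an age, and it rose by 1.82 ± 0.20 (log2, SE, adjusted p = 8.16e-06). Tpm1, Ankrd13a and Ppp1r13b rose by 1.93, 1.74 and 1.86. Those that were lower included the nuclear matrix protein Matr3, the kinase Csnk1e and Smarca4, the ATPase of the BAF chromatin remodelling complex. Matr3 had 453, 451 and 459 CPM in the E16 samples and 133 and 99.96 CPM in the P12 samples. The E16 values were nearly the same in each sample and the groups were well apart, with a change of -1.96 ± 0.22 (adjusted p = 9.62e-06). Csnk1e and Smarca4 fell by 1.99 and 1.77.

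Few genes could be shown to be steady. The 95% interval of the log2 change lay within a 2-fold change in both directions for 1689 genes (7.98% of those tested), of which 735 had at least 50 CPM at both ages. Of these 1689 genes 1 was called, and the other genes that were not called had intervals reaching past a 2-fold change. The 6 coding genes of these with the narrowest intervals were Mprip, Smarca2, Ubap2l, Clip1, Add1 and Mllt6. Add1, an adducin that caps actin in the membrane skeleton, stood at 269.96, 252 and 268 CPM at E16 and 256 and 210.5 CPM at P12. Its groups overlapped, and the change was -0.17 with an interval of -0.57 to 0.23. Clip1, which follows growing microtubule ends, had 123, 122 and 111 CPM at E16 and 151 and 154 CPM at P12, a change of 0.36 (-0.04 to 0.76). Smarca2, the ATPase that stands in for Smarca4 in the BAF complex, had 259, 222 and 229.7 CPM at E16 and 332 and 387 CPM at P12, with all P12 values above all E16 values. Its change of 0.60 was called although its interval (0.21 to 0.99998) lies within 2-fold, and the call ended without E16 replicate 2 (0.56), E16 replicate 3 (0.58) or P12 replicate 2-3 (0.49) and without the filter on low counts. Mprip, Ubap2l and Mllt6 had log2 changes of 0.51, -0.52 and 0.26, which did not pass the test. Mprip (0.12 to 0.91) and Ubap2l (-0.91 to -0.12) came close to a call, with adjusted p of 0.0519 and 0.0527. Their intervals excluded 0 and their samples did not overlap between the ages, so they are steady only in the sense of staying within 2-fold. The interval of Mllt6 was -0.15 to 0.66.

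**Figure D3:**
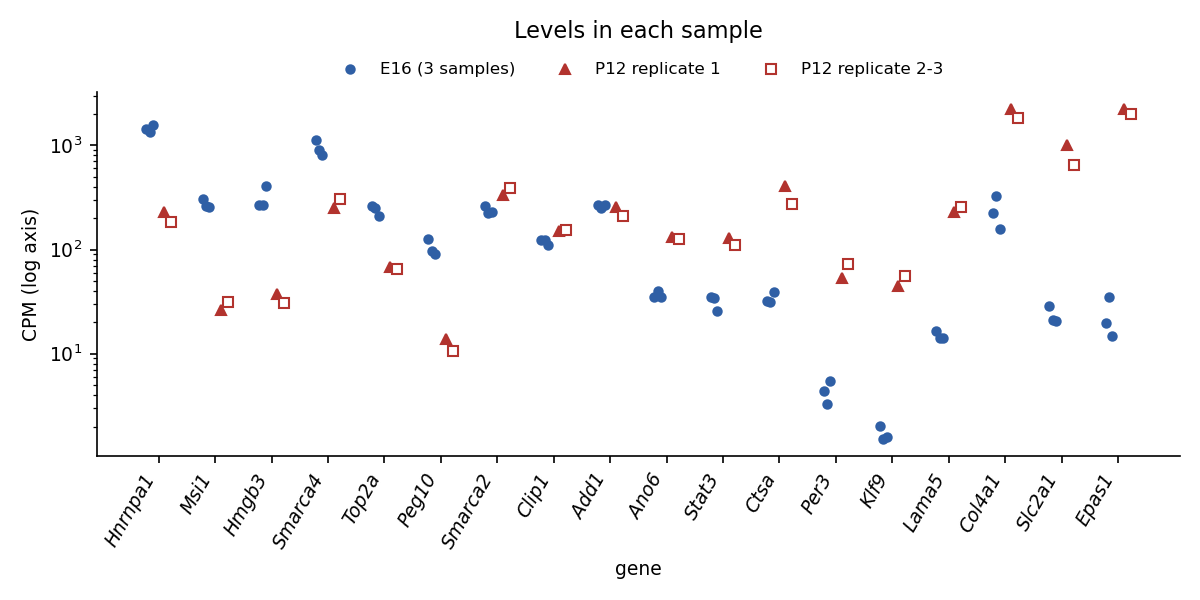
Level in each sample (vertical log axis, CPM) of 18 genes described in the text, with 3 E16 samples as blue circles, P12 replicate 1 as a red triangle and P12 replicate 2-3 as an open square. Genes to the left, such as Hnrnpa1, were lower at P12, Clip1 and Add1 lay close together at both ages, and genes to the right, such as Epas1, were higher at P12.

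The cytoskeleton of growing neurons had the lowest median of the 38 gene lists in the plot of list medians. Of 38 genes of neuronal microtubules and growth cones 29 were lower and none higher (background 10.5% and 16.7%), with a median of -3.47 against 0.09 over all genes. For all 38 of them both P12 samples lay below every E16 sample (30.9% of all genes). Dpysl3, a collapsin response mediator that acts in growth cone turning, stood at 1351, 1094 and 1161 CPM at E16 and 30.7 and 52.7 CPM at P12. All E16 values were far above both P12 values, and the change was -4.85 ± 0.46 (adjusted p = 1.85e-06). Mllt11, a small protein that binds neuronal tubulin, changed by -4.22 ± 0.42. Tubulin paralogs share reads here, because reads that map to several places were counted at each. Synaptic genes were less uniform, with 10 lower and 2 higher of 36 and a median of -1.15. The vesicle GTPase Rab3a fell from 107, 83.4 and 135 CPM to 14.5 and 12.7 CPM, a change of -2.99 ± 0.45. Against the list, the postsynaptic scaffold gene Shank3 rose from 31.7, 37.8 and 25.5 CPM to 190.2 and 253 CPM, by 2.81 ± 0.27, and Syn3 rose by 1.97. The immature neuron markers fell along with both groups, with 13 of 14 called lower. Stmn2 and Tubb3 are members of both the marker and the cytoskeletal list. The 12 mature neuron markers, of which 8 are also in the synaptic list, summed to 539, 455 and 524 CPM at E16 and 52.4 and 266 CPM at P12, and 3 were called lower, or 1 without P12 replicate 1. No marker of either list was at 0 counts at either age, and their part in these changes was not tested. Without P12 replicate 1 the cytoskeletal count was 18, the immature neuron count 7 and the synaptic count 3, the last with a median of -0.77. The synaptic median was -2.58 without P12 replicate 2-3.

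RNA-binding proteins and splicing factors were lower at P12 in most cases. Of 38 early RNA-binding proteins, which control splicing, stability and translation in neural progenitors and young neurons, 24 were lower and 1 higher (background 10.5% and 16.7%), with a median of -2.02. Msi1 (Musashi), a translational regulator of neural stem cells, stood at 302, 263 and 255 CPM at E16 and 26.5 and 31.4 CPM at P12. The ages were well separated and the change was -3.24 ± 0.36 (adjusted p = 8.40e-06). Igf2bp1, a fetal mRNA-binding protein, changed by -5.66 ± 0.68, and the STAR-family gene Khdrbs1, which is expressed widely, by -1.81 ± 0.24. Ptbp3, a paralog of the splicing repressor Ptbp1, was the exception. It rose from 19.7, 27.8 and 18.3 CPM to 95.2 and 70.4 CPM, by 1.91 ± 0.30. Of 44 general splicing factors (hnRNPs, SR proteins and SF3 subunits) 34 were lower and none higher, with a median of -1.22 and a range of -2.81 to -0.11. Hnrnpa1 stood at 1445, 1355 and 1569 CPM at E16 and 231 and 185 CPM at P12, and Hnrnpdl and Hnrnpab changed by -2.32 ± 0.24 and -2.20 ± 0.25. The count of splicing factors called lower was 22 once P12 replicate 2-3 was left out. Immature neuron markers fell beside both groups, Elavl3 and Elavl4 being in the marker list too, and their part in these changes was not tested.

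Genes of chromatin followed the same direction with smaller sizes. Of 53 chromatin modifiers 22 were lower and 5 higher (background 10.5% and 16.7%), with a median of -0.76. The BAF subunit genes Smarca4, Smarcc1 and Smarce1 were the calls with the smallest p. Smarca4 stood at 1125, 903 and 807 CPM at E16 and 249.99 and 305 CPM at P12. Every P12 value was under every E16 value, for a change of -1.77 ± 0.22 (adjusted p = 2.34e-05), and Smarcc1 and Smarce1 changed by -2.22 and -1.88. Ezh1, a histone H3 lysine 27 methyltransferase, went the other way, from 11.7, 13.8 and 13.3 CPM to 45.3 and 44.2 CPM, a rise of 1.79 ± 0.25. Of 16 high-mobility-group genes, which encode abundant DNA-bending and nucleosome-binding proteins, 9 were lower and none higher, with a median of -1.49. Hmgb3, a member enriched in stem cells, had 269, 269 and 406 CPM at E16 and 37.6 and 30.7 CPM at P12. The change was -3.20 ± 0.52, and Hmgb2 and Hmgn2 changed by -1.89 and -1.96. Without P12 replicate 2-3 only 3 chromatin modifiers were higher.

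Imprinted genes, which are expressed from 1 parental copy and act in growth, were lower as a minority. Of 28 tested, 10 were lower and 2 higher (background 10.5% and 16.7%), with a median of -0.99 and a wide range from -3.94 to 2.64. Leaving out P12 replicate 1 gave a median of -0.50, and leaving out P12 replicate 2-3 a median of -1.55. The list summed to 3628, 3673 and 3843 CPM at E16 and 1961 and 4077 CPM at P12, so that the P12 samples lay on both sides of E16. Peg10, a paternally expressed gene derived from a retrotransposon, stood at 125, 97.4 and 91.2 CPM at E16 and 13.9 and 10.6 CPM at P12. Its P12 values were far under its E16 values, for a change of -3.10 ± 0.39 (adjusted p = 3.00e-05). Mest and Zdbf2 changed by -2.42 ± 0.36 and -3.88 ± 0.61. Airn, the long noncoding RNA that overlaps Igf2r, was higher by 2.55, a call that ended without E16 replicate 1 (2.32) or P12 replicate 2-3 (2.24). The higher count in the list was 0 without either of these samples and 1 without E16 replicate 2, E16 replicate 3 or P12 replicate 1.

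Most histone genes and a minority of other cell cycle genes were called lower at P12. Of 66 replication-dependent histone genes, whose transcripts are made in S phase, 54 were lower and none higher (background 10.5% and 16.7%), with a median of -2.17. Hist1h1d, a linker histone, stood at 223, 247 and 196 CPM at E16 and 70.8 and 51.9 CPM at P12. The P12 values were all lower, and the change was -1.85 ± 0.31 (adjusted p = 4.08e-04). The core histones Hist1h2bh and Hist1h2ai changed by -2.29 and -2.30, and near-identical copies share reads. This count rests on P12 replicate 2-3, since without it 14 were called, with a median of -1.81. Of 39 DNA replication genes 10 were lower and none higher, with a median of -1.21, and of 40 genes of mitosis and the kinetochore 12 were lower and none higher, with a median of -1.57. Both P12 samples were below every E16 sample for 32 and 39 of them (30.9% of all genes). Without P12 replicate 1 the counts were 5 and 3, and without P12 replicate 2-3 they were 3 and 1. The mitosis count was 5, 4 and 3 without E16 replicates 1, 2 and 3, while its median stayed between -1.79 and -1.42.

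Promoters of 2 of these cell cycle genes are shown because they hold the motifs by which such genes are known to be controlled, E2F sites at replication genes and CCAAT boxes, bound by NF-Y, at mitotic genes. The sequences are 250 bases before to 50 after a start site from RefSeq on GRCm38.p6, printed 5′ to 3′ on the strand of the gene, and matches of the motif named for each gene are in capitals. Each motif was searched by itself on both strands, E2F as TTTCCCGC or TTTGGCGC and the CCAAT box as CCAAT, so a place could count for both. Mcm7, a subunit of the replicative helicase, is at chr5:138171834-138172133 on the minus strand with 1 E2F match. Top2a, the topoisomerase that untangles chromosomes, is at chr11:99024140-99024439 on the minus strand with 6 CCAAT matches.
Mcm7: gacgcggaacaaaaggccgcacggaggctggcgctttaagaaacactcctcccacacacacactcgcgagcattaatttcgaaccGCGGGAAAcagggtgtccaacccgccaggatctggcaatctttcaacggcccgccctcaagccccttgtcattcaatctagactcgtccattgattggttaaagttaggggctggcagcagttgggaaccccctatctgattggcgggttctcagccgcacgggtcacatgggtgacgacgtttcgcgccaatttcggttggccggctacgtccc
Top2a: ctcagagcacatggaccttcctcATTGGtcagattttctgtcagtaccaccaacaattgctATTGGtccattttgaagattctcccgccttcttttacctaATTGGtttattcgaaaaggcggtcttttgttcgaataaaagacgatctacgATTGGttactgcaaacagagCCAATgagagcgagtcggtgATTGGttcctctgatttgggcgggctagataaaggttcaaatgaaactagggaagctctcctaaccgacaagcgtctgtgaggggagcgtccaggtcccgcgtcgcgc
Mcm7 stood at 99.8, 106 and 115 CPM at E16 and 25.9 and 19.8 CPM at P12. The P12 values were close together and well under the E16 values, a change of -2.23 ± 0.36 (log2, SE, adjusted p = 2.55e-04). The replication genes Gins2 and Lig1 changed by -1.87 and -1.46. Top2a had 262, 252 and 210.4 CPM at E16 and 68.5 and 64.8 CPM at P12. Its P12 values were nearly equal, and it changed by -1.86 ± 0.39 (adjusted p = 0.00241). The condensin genes Smc2 and Ncapd2 changed by -1.33 and -1.12, and neither was called without P12 replicate 2-3 (-1.14 and -0.87). A CCAAT box was found in 25 of the 33 mitosis promoters matched (75.8%) and in 37.4% of all 32851 promoters of this length. An E2F form was found in 1.56% of all promoters, and no share is given for the replication genes because only 30 of 39 had a promoter in the table.

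Ribosomal protein and respiratory chain genes, which serve protein synthesis and energy supply in every cell, had medians below 0 but few calls. Of 80 cytosolic ribosomal protein genes 9 were lower and none higher, 11.3% against a background of 10.5%, although the median was -0.95. Rpl7a had 211, 252 and 451 CPM at E16 and 127 and 88.9 CPM at P12, with E16 replicate 3 well above the other E16 samples. It changed by -1.50 ± 0.35 and lost its call without P12 replicate 2-3 (-1.26). Rpl4, at -1.001, lost its call without that sample (-0.77) or without E16 replicate 3 (-0.79). The summed level of the list was 12964, 15656 and 26640.1 CPM at E16 and 11536 and 7794 CPM at P12, with E16 replicate 3 far above the other E16 samples. The number called was 18 without E16 replicate 1, 1 without E16 replicate 3 and 0 without P12 replicate 2-3. Of 80 nuclear genes of the respiratory chain 6 were lower and none higher, with a median of -0.61, and 3, 1 and 0 were called without E16 replicate 2, E16 replicate 3 and P12 replicate 2-3. In glycolysis 5 of 24 genes were lower and 5 higher, with a median of 0.11. Pyruvate kinase Pkm changed by -0.83, a call that ended without P12 replicate 2-3 (-0.61) and in a fit of the E16 and P12 samples alone. The brain glucose transporter Slc2a1 rose from 29.004, 21.2 and 20.8 CPM to 1015 and 649.6 CPM, by 5.14 ± 0.35, the monocarboxylate carrier Slc16a1 by 5.95 and the kinase Pdk4, which restrains pyruvate oxidation, by 3.08. Of the glycolysis genes 1 was lower without E16 replicate 3 and none without P12 replicate 2-3.

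Among transcription factor families, a part of the homeobox and zinc finger genes was called lower, and the bHLH family split. Of 78 LIM, paired, POU, Dlx and related homeobox genes 29 were lower and 4 higher (background 10.5% and 16.7%), with a median of -1.90. Lhx2, which specifies cortex and hippocampus, stood at 298, 226 and 329.5 CPM at E16 and 12.01 and 14.7 CPM at P12. No overlap was seen, and the change was -4.41 ± 0.54 (adjusted p = 2.94e-05). Pou3f2, a factor of upper-layer neurons, changed by -2.90 ± 0.35 (-3.52 without P12 replicate 2-3). The pituitary factor Pou1f1 was higher by 2.49, from 36.2, 63.3 and 30.2 CPM to 200.2 and 287 CPM, and overlapping genes share reads in these counts. Without P12 replicate 1 the lower homeobox count was 15, and the higher count was 2 without E16 replicate 1 or 3. Immature neuron markers (13 of 14 lower) and radial glia and progenitor markers (4 of 12 lower) moved beside these families, with the sums given above, and their part in the changes was not tested. Of 376 zinc finger genes named Zfp 59 were lower and 11 higher, with a median of -0.51. Zfp462 fell from 861, 651 and 549 CPM to 59.2 and 63.8 CPM, a change of -3.48 ± 0.43, and Zfp41 fell by 2.47, while Zfp366, a repressor known from dendritic cells and endothelium, rose from 5.11, 5.73 and 2.12 CPM to 352 and 209.7 CPM, by 6.02. The lower Zfp count was 36 and 37 without E16 replicates 1 and 3, 22 without P12 replicate 1 and 26 without P12 replicate 2-3, and the higher count was 6 and 7 without these P12 samples. The bHLH family had 13 lower, among them Neurog2, and 9 higher of 43. Id1, an inhibitor of bHLH factors and a target of BMP signalling, rose from 4.03, 2.65 and 5.31 CPM to 86.1 and 66.7 CPM, by 4.25 ± 0.38, and Bhlhe40, a repressor linked to the clock, by 2.97. The lower count was 8 and the median -0.09 without P12 replicate 1, against -0.46 with it.

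Within the Sox and Forkhead families the subgroups moved apart. Of 18 Sox genes 9 were lower and 4 higher (background 10.5% and 16.7%), with the SoxC gene Sox4 at 1394, 1155 and 1089.9 CPM at E16 and 149 and 111 CPM at P12. Both P12 samples were far below E16, a change of -3.22 ± 0.27. The SoxF genes Sox17 and Sox7, factors of endothelial cells, rose by 8.65 ± 0.49 and 6.54 ± 0.46. Among 31 Forkhead genes 10 were higher and 6 lower. Foxc1, which acts in meninges and mural cells, rose from 14.03, 21.1 and 13.6 CPM to 175 and 169 CPM, by 3.40 ± 0.29, and the vascular Foxq1 and Foxf1 rose by 5.83 and 6.29, the latter by 7.01 without E16 replicate 2. Foxo6, a neuronal member, changed by -4.71, or -6.91 with only replicate 1 at P12 and -3.93 with only replicate 2-3.

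The Ets, Irf and Stat and Kruppel-like factors had calls in the higher direction and none in the lower, as did the few Hox genes tested. Of 21 Ets genes 11 were higher, with a median of 1.83, of 16 Irf and Stat genes 11, with a median of 1.87, and of 14 Kruppel-like genes 8, with a median of 1.42 (background 16.7%). Stat3, a transducer of cytokine signals that is needed for astrocyte differentiation, stood at 34.98, 34.4 and 25.5 CPM at E16 and 130.3 and 110.3 CPM at P12. Each P12 value was above each E16 value, with a change of 1.93 ± 0.22 (adjusted p = 1.04e-05), and Stat6 rose by 3.56. The endothelial Ets factors Erg, Fli1 and Ets1 rose by 6.74, 5.24 and 4.40. Klf2 and Klf4, which respond to blood flow in endothelial cells, rose by 5.88 ± 0.49 and 4.36 ± 0.34. Of 7 Hox genes that passed the filter Hoxd4 and Hoxd11 were called higher, and leaving out any 1 sample ended the call of Hoxd4, which had no count at E16. Hoxd11 lost its call without E16 replicate 1, E16 replicate 3 or P12 replicate 2-3 and in limma-voom. Endothelial and microglia markers rose beside these families, and their part in the changes was not tested.

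Vessel genes made up the 4 lists with the highest medians among the 38 lists plotted, which do not include the marker lists. Of 28 transporters of brain endothelium 27 were higher, of 22 endothelial junction genes 17, of 30 endothelial transcription factors 27 and of 28 VEGF, angiopoietin and TGF-beta pathway genes 20, with none lower in any list (background 16.7% and 10.5%). The medians were 4.71, 4.39, 4.14 and 3.87, and each count stayed within 1.5 times when any 1 sample was left out. Slco2b1, an uptake transporter of the blood-brain barrier, stood at 6.98, 5.31 and 5.90 CPM at E16 and 244 and 182 CPM at P12. The E16 samples were all low, and the change was 5.13 ± 0.28 (adjusted p = 1.24e-08). The efflux pumps Abcb1a and Abcc4 rose by 8.35 and 5.44. Epas1, a hypoxia-inducible factor that is high in endothelium, had 19.6, 34.9 and 14.7 CPM at E16 and 2212 and 2007 CPM at P12. The ages did not overlap, and it rose by 6.51 ± 0.38. Of the junction genes Esam rose by 6.10 ± 0.29 and the claudin Cldn5 by 8.26 ± 0.42. The 5 junction genes that did not pass were Cldn12, Cgn, Jam3, Afdn and Gjc1, named after their values were seen, with Afdn, a scaffold found in many epithelia, at 369, 286 and 247 CPM at E16 and 326 and 331 CPM at P12. All 12 endothelial markers rose with these lists, from sums of 47.5 to 74.3 CPM at E16, with none at 0 counts, to 5779 and 4538 CPM at P12. Of these markers 4 are also in the junction list, 4 in the VEGF and angiopoietin list and 1 in the transporter list. The part of the endothelial marker level in these changes was not tested.

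The extracellular matrix and its receptors were higher in large part. Of 44 collagen genes 25 were higher and 1 lower (background 16.7% and 10.5%), with a median of 2.22. Col4a1, a chain of basement membrane collagen, stood at 222, 326 and 156 CPM at E16 and 2234 and 1809 CPM at P12. All P12 values were several times the E16 values, with a change of 3.11 ± 0.27 (adjusted p = 6.56e-07), and Col4a2 and Col18a1 rose by 3.64 and 3.001. The cartilage collagen Col2a1 was lower, from 49.2, 85.5 and 218 CPM to 2.55 and 3.99 CPM, with E16 samples far apart. Its change of -5.15 ± 1.09 was not called without P12 replicate 1 (-4.88), when no collagen was called lower, and was -4.35 without E16 replicate 3. Of 37 integrin and laminin genes 27 were higher and none lower, with a median of 2.58. Lama5, a laminin chain of vessel basement membranes, had 16.6, 14.1 and 14.3 CPM at E16 and 231 and 257 CPM at P12. The samples of each age were close, and it rose by 4.02 ± 0.28, while Lama3 and Lama4 rose by 6.02 and 3.26. Proteoglycans and related matrix genes went both ways, with 12 higher and 4 lower of 30. Sparcl1 and Sparc, secreted matrix regulators of astrocytes and vessels, rose by 5.16 and 4.34, and perlecan (Hspg2) by 3.43. Gpc2, a heparan sulfate proteoglycan of growing axons, stood at 134, 139 and 179 CPM at E16 and 4.54 and 6.76 CPM at P12 and fell by 4.72 ± 0.53. Mural markers, of which 9 of 11 were higher, summed to 183, 269 and 195 CPM at E16 and 1276 and 983 CPM at P12, and 9 fibroblast markers, of which 4 were higher (2 without P12 replicate 2-3), to 729.9, 765 and 675 CPM and 1637 and 2382 CPM. The fibroblast markers include the collagen genes Col1a1, Col1a2 and Col3a1 and the proteoglycan genes Dcn and Lum, so they are not separate from the matrix genes. No marker of these lists was at 0 counts, and their part in the matrix changes was not tested.

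Lysosomal genes rose together and by moderate amounts. Of 34 tested, 26 were higher and none lower (background 16.7% and 10.5%), with a median of 1.59 and a range of -0.13 to 5.28. Ctsa, the protective protein of lysosomal galactosidase, stood at 32.3, 31.4 and 38.9 CPM at E16 and 405 and 273 CPM at P12. The 2 ages were far apart, with a change of 3.31 ± 0.28 (adjusted p = 5.79e-07). Ctsh, a protease, rose by 5.28 ± 0.35. Tfeb, the transcription factor that drives lysosomal genes, had 3.02, 1.63 and 1.53 CPM at E16 and 33.6 and 28.5 CPM at P12. It rose by 3.91 ± 0.38. Microglia markers rose beside these genes, 11 of 12 being called, from sums of 101, 139.8 and 140.3 CPM to 1035 and 1102 CPM. No microglia marker was at 0 counts, and the part of microglia in the lysosomal rise was not tested.

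Clock and hormone-responsive genes were higher at P12. Of 20 clock genes 13 were higher and none lower (background 16.7% and 10.5%), with a median of 1.58. Per3, a repressor of the clock loop, stood at 4.39, 3.26 and 5.42 CPM at E16 and 53.7 and 73.1 CPM at P12. Its samples of 1 age were close, and it rose by 3.86 ± 0.33 (adjusted p = 5.38e-07), with the nuclear receptor Rora at 3.31 and Bhlhe40 at 2.97. The hour at which tissue was taken is not given in the labels used here. The promoter of Tef, an output factor of the clock, was chosen after its values were seen and is shown because it carries the E-box by which the clock proteins are known to act, CACGTG, in capitals, at chr15:81802423-81802722 on the plus strand, from RefSeq on GRCm38.p6.
Tef: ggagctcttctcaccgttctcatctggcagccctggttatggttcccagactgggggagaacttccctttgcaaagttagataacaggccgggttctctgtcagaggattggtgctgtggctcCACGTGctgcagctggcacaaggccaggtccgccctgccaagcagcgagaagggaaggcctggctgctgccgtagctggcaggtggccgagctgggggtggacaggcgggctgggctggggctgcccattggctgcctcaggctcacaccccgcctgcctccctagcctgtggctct
Tef stood at 23.2, 23.9 and 25.5 CPM at E16 and 71.8 and 80.8 CPM at P12. It was near constant within an age and rose by 1.66 ± 0.23. The motif reads the same on both strands and was found in 5 of 17 clock promoters matched (29.4%) and in 7.15% of all 32851 promoters. Of 24 genes of steroid and thyroid hormone response 14 were higher and 1 lower, with a median of 1.72. Klf9, a direct target of both hormone classes, had 2.02, 1.51 and 1.59 CPM at E16 and 45.03 and 55.8 CPM at P12. The rise was 4.88 ± 0.26 (adjusted p = 8.49e-09). The glucocorticoid receptor Nr3c1 rose from 10.1, 11.6 and 6.90 CPM to 154 and 124 CPM, by 3.86 ± 0.26. Thra, a thyroid hormone receptor, fell from 513, 457 and 679 CPM to 166 and 151 CPM, a change of -1.79 ± 0.24.

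Signalling genes moved in both directions. Of 58 receptor tyrosine kinases 21 were higher and 5 lower (background 16.7% and 10.5%), with a median of 0.82, or 0.16 without P12 replicate 2-3. The vessel receptors Flt1, Tek and Kdr rose by 7.78, 7.23 and 6.20, while the axon guidance receptor Epha4 fell from 353, 289 and 248 CPM to 64.7 and 63.5 CPM, a change of -2.21 ± 0.28. Of 52 growth factors and secreted regulators 16 were higher and 5 lower. Pdgfb, a ligand of endothelial cells for mural cells, rose from 1.44, 1.39 and 1.42 CPM to 117 and 88.3 CPM, by 6.18 ± 0.30, and Pdgfd and Igfbp7 rose by 6.58 and 5.55. Wnt7b, a Wnt ligand of neural cells, stood at 83.6, 80.5 and 88.1 CPM at E16 and 6.72 and 9.39 CPM at P12 and fell by 3.38 ± 0.61. The lower count of the growth factors was 3 without E16 replicate 3 or P12 replicate 2-3 and 2 without P12 replicate 1, and their median was 0.06 without P12 replicate 2-3 against 0.80 with all samples.

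Receptors and channels of excitable cells gave few calls, and the sign of their medians depended on which P12 sample was in the fit. Of 32 glutamate receptor genes 4 were higher and 2 lower, of 19 GABA and glycine receptor genes 3 and 2, and of 65 voltage-gated channel genes 8 and 7 (background 16.7% and 10.5%). The higher glutamate receptor count was 2 without E16 replicate 1, E16 replicate 3 or P12 replicate 2-3, and the lower count 4 without P12 replicate 2-3 and 1 without P12 replicate 1. The higher GABA and glycine receptor count was 1 when any 1 E16 sample was left out and 0 without P12 replicate 2-3, and the lower count 1 without P12 replicate 1. The glutamate receptor median was -0.26 with all samples, 0.40 without P12 replicate 1 and -1.80 without P12 replicate 2-3. Likewise the channel median was 0.14, 0.51 and -1.43, and the GABA and glycine receptor median 0.21, 0.17 and -1.65. Without P12 replicate 2-3 the channels had 4 higher and 13 lower, and without P12 replicate 1 they had 9 and 2. Grm3, a metabotropic glutamate receptor of astrocytes and other cells, was even within each age, at 5.47, 4.71 and 4.01 CPM at E16 and 31.7 and 31.6 CPM at P12. It rose by 2.74 ± 0.63. The sodium channel subunit gene Scn3b fell from 33.03, 30.4 and 39.6 CPM to 9.58 and 7.55 CPM, a change of -2.005 ± 0.42. Of 25 inward rectifier and K2P leak potassium channels 7 were higher and 1 lower, or none lower without P12 replicate 1. Kcnj2, which carries the inward rectifier current of endothelium and other cells, rose from 1.73, 0.905 and 1.59 CPM to 63.1 and 35.8 CPM, by 5.13 ± 0.50, and Kcnj16, of glia, by 2.56.

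**Figure D4:**
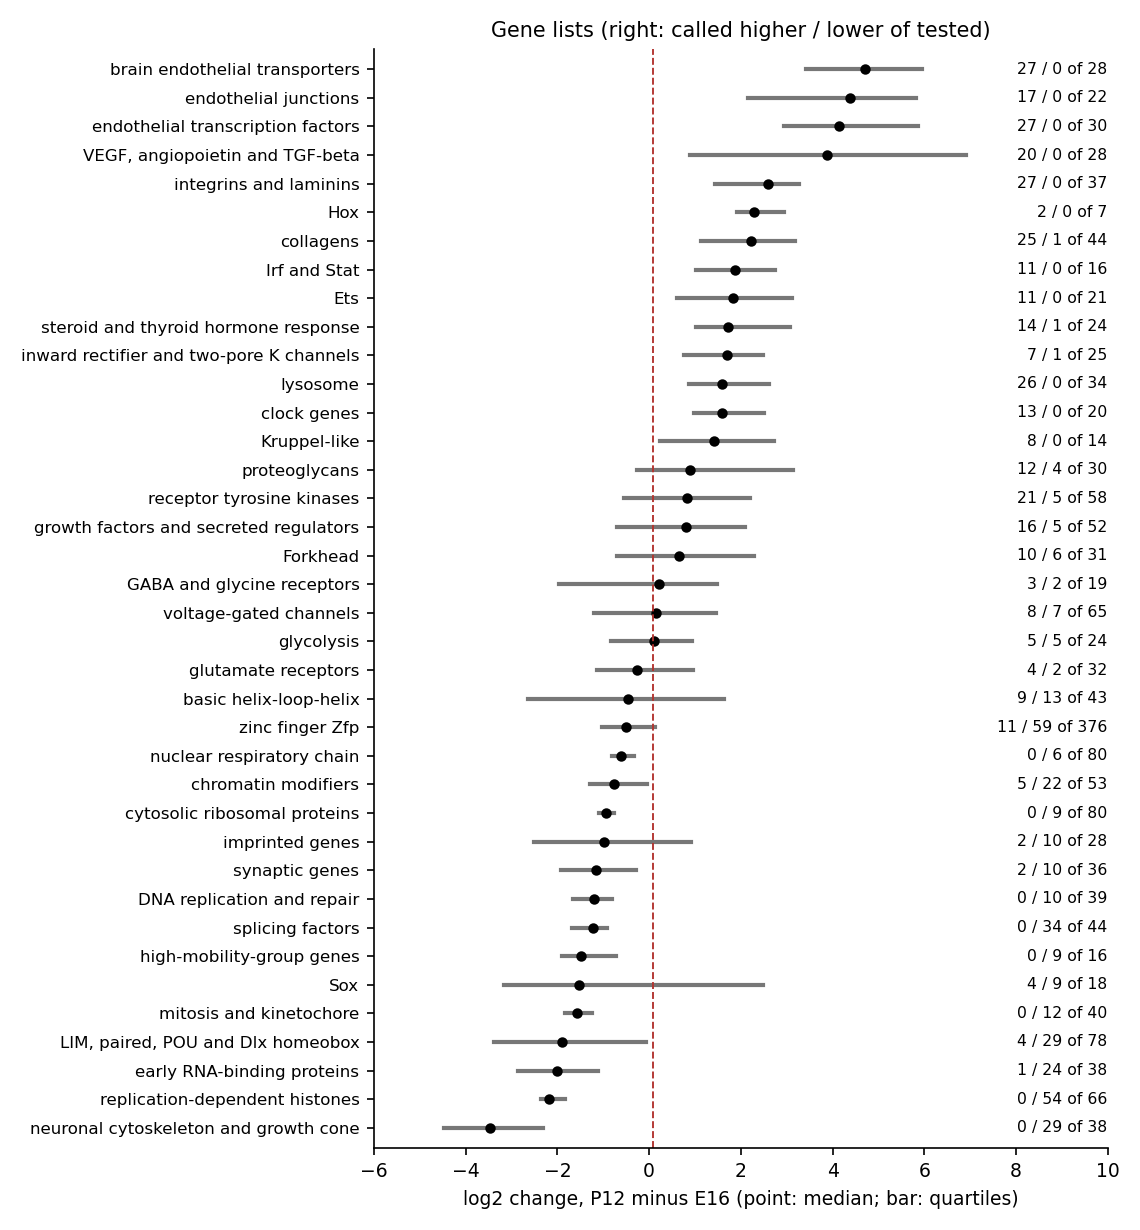
Median (point) and quartiles (bar) of the log2 change from E16 to P12 over the tested members of 38 gene lists, with the number called higher, called lower and tested at the right and the median of all genes (0.09) as a dashed line. Neuronal cytoskeleton lies at the low end and the vessel lists at the high end, while ribosomal, splicing and mitotic genes have narrow bars below 0.

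Long noncoding RNAs were also found on both sides. Of 1283 lincRNA genes 97 were higher and 36 lower (background 16.7% and 10.5%), with a median of 0.59. Of 1686 antisense genes 184 were higher and 43 lower, but the counts were made without regard to strand, so reads of a gene and its antisense partner cannot be told apart. Apart from Gm26917, named above, and other genes without a given name, the called lncRNAs with the highest levels at P12 were Malat1, Neat1, Firre and the pseudogene transcript Tmem250-ps. Neat1, the scaffold of nuclear paraspeckles, stood at 3.81, 10.7 and 6.25 CPM at E16 and 68.1 and 136 CPM at P12. The 2 P12 samples differed from each other, yet both lay above E16, and the change was 3.88 ± 0.53 (adjusted p = 1.46e-04), or 3.29 without P12 replicate 2-3. Malat1, an abundant nuclear RNA, had 2988, 4372 and 2379 CPM at E16 and 5477 and 12013 CPM at P12. Its rise of 1.43 rests on P12 replicate 2-3, since without that sample it was 0.75 and not called, and the call ended without E16 replicate 3 as well (1.25). Firre, an X-linked RNA of nuclear organisation, rose by 2.07, or 1.31 without P12 replicate 2-3, and Tmem250-ps by 1.98. Among named genes annotated as lncRNAs or processed transcripts, the most abundant called lower were H19, Peg13, Pantr1 and Cct6a. Cct6a is in this group only by its annotation as a processed transcript, which does not make it a lncRNA. The imprinted H19 stood at 208, 240.2 and 239 CPM at E16 and 32.5 and 33.4 CPM at P12. It was even within each age and fell by 2.80 ± 0.61, while Peg13 and Cct6a fell by 1.79 and 1.60. Pantr1, a neighbour of Pou3f3, changed by -3.75 and was not called when either P12 sample was left out (-3.54 and -4.02). All lncRNAs together took 4.52% to 6.35% of counts at E16, and 5.98% in the first P12 library but 14.6% and 15.01% in the other two. Gm26917 alone took 9.27% of counts in P12 replicate 2-3, against 1.99% in P12 replicate 1, and the origin of its reads was not tested.

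The 2 P12 samples differed from each other in myelin and neuronal genes. Of 9633 coding genes whose P12 mean reached 10 CPM, 8599 (89.3%) agreed within 2-fold between the 2 P12 samples, while 94.5% of 9102 such genes at E16 agreed within 2-fold over all 3 E16 samples. At P12, 77 genes were over 4-fold higher in replicate 1 and 215 in replicate 2-3. The 5 with the largest ratio towards replicate 1 were Mog, Ugt8a, Ermn, Fa2h and Mobp, which encode myelin proteins and enzymes of myelin lipids. Mobp stood at 995 and 33.02 CPM in the 2 P12 samples and at 1.22, 3.44 and 0.236 CPM at E16. The 5 with the largest ratio towards replicate 2-3 were Cpne7, Ryr3, Trank1, Cacna1i and Rtl1, of which Ryr3 and Cacna1i encode calcium channels of neurons. Ryr3 stood at 0.498 and 62.3 CPM in the P12 samples and 33.9, 28.4 and 24.1 CPM at E16, so that the E16 values lie between them. The synaptic list likewise summed to 954 and 2486 CPM in the P12 samples and to 3033, 2647 and 2547 CPM at E16. Of 2406 coding genes called higher with at least 10 CPM at P12, 81 differed over 4-fold between the P12 samples.

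**Figure D5:**
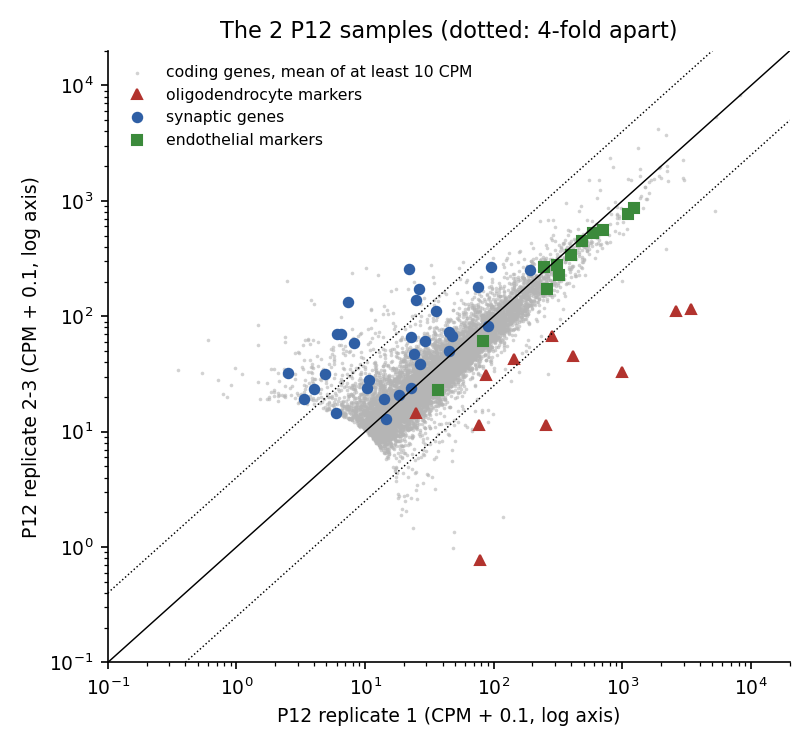
Level in P12 replicate 2-3 (vertical log axis) against P12 replicate 1 (horizontal log axis), in CPM plus 0.1, for 9633 coding genes whose P12 mean reached 10 CPM, with the members of 3 lists marked among them and dotted lines 4-fold from equality. Oligodendrocyte markers lie to the right, synaptic genes mostly above the line, and endothelial markers close to it.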

How the data were processed

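RNA of bulk brain cells enriched with beads against PDGFRα was sequenced with a kit that marks strand, for pico amounts of total RNA, per the labels' protocols. The authors deposited whole-number gene counts of reads. Per the file headers, featureCounts 1.5.0-p1 was run with the Ensembl release 92 annotation of GRCm38, and its recorded options show that reads in several genes or places were counted at each and that a minimum overlap of 10 bases was asked. Trim Galore and TopHat2 2.1.1 are named in the submitters' processing notes. Reads of paralogs and overlapping genes are therefore shared, and strand was not used in counting.

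Here 37715 of 37785 genes were named from the GENCODE annotation given for the same build. Counts of P12 libraries 2 and 3 were summed, and the 13 libraries of all 4 ages entered 1 fit of 12 samples, which share the estimate of spread, made with the robust quasi-likelihood test of edgeR 4.0.16 (TMM scaling, filterByExpr by age, R 4.3.3), with Benjamini-Hochberg adjustment over 21170 genes at 0.05. With 3 against 2 samples the spread rests largely on that shared estimate. Libraries of 1 age were compared by chi-square over genes with at least 20 counts. The fit was tested on simulated counts. Lists are described by counts and medians, without a test. The members and lists were chosen with earlier results of these data known.

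Genes were named by rule: the 10 coding calls with the smallest p in each direction, the first 3 calls of each list and 1 against its direction, the 4 moderate calls in each direction with the smallest p (log2 size 1 to 2, at least 100 CPM), the 6 most abundant coding genes per length at each age, the 4 most abundant called lncRNAs in each direction, the 6 steadiest coding genes of at least 50 CPM, the 5 coding genes most unequal between the P12 samples in each direction, and Pdgfra, Cspg4, Olig2 and Sox10. Some genes that the rule selects are not reported here. Alternatives were RLE and upper quartile scaling, other filters, DESeq2 1.42.0, limma-voom (limma 3.58.1), a fit of E16 and P12 alone, the replicate number as a block, P12 libraries kept apart, exclusion of abundant gene classes, a test against a 2-fold change and each sample left out.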

Additional observations from a re-analysis of the deposited data

How the results depend on the processing

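The count of called genes (5765, 3543 higher and 2222 lower) stayed between 5368 and 7774 under scaling, filter, tool and sample choices, among them RLE scaling (5794), upper quartile scaling (5680), no filter on low counts (6527), DESeq2 (7092), the E16 and P12 samples alone (7591) and P12 libraries 2 and 3 kept apart (7665, with 3349 lower). Limma-voom called 7774 genes, 3969 of them lower. Tested against a 2-fold change 2928 genes were called, 2218 higher and 710 lower, by construction of a stricter test. With 1 sample left out the total ran from 3748 to 4765, the higher count from 2652 to 3037 and the lower count from 1096 to 1728. The median log2 change of all genes lay between 0.07 and 0.27 under these settings, but was -0.14 without P12 replicate 2-3. Of 123 called genes tested for stability 12 lost their call under some setting other than the 2-fold test, and none turned its direction. Calls were also gained among the 126 genes so tested, by 3 genes in the fit of E16 and P12 alone. Without the filter on low counts 2 genes gained a call. Fits with a sample left out also had fewer samples, and the cause of the lost calls was not tested.

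The labels give E16 and P12 samples the same replicate numbers without saying that a number marks a shared litter or day. With the replicate number as a block 5368 genes were called, 3324 higher and 2044 lower. Deviations from the group means correlated at -0.19 between the samples numbered 1, and P12 replicate 2-3 correlated at 0.13 with E16 replicate 2 and at -0.26 with E16 replicate 3. With 2 samples at P12 the deviations of one mirror those of the other, so these values do not show a pairing and cannot settle it, and the numbers were not taken to pair the samples. The block ended the calls of Rpl4 (-0.90) and Smarca2 (0.63) and turned the sign of 3 small list medians, glycolysis (-0.0098), GABA and glycine receptors (-0.23) and voltage-gated channels (-0.35). With 2 samples at P12, values of myelin, ependymal, synaptic and noncoding transcripts rest on samples that differ from each other.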
